A study of Homo sapiens with 12 samples.

Results

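Ovcar8 cells that overexpressed CCNE1 and carried the second of 2 short hairpin RNAs against TMLHE were compared with Ovcar8 cells that overexpressed CCNE1 alone. Ovcar8 is a cell line from a high-grade serous ovarian cancer, and CCNE1 encodes cyclin E1, the partner of the kinase CDK2 at the start of S phase. The members were chosen by their labels: 3 libraries with the hairpin (shTMLHE 2) and 3 without it (CCNE1), 6 of the 12 libraries of the series. Of the 58735 genes counted, 15378 had enough counts to be tested, and all of these are described here. Both groups carried the CCNE1 construct and differed by hairpin 2. The other groups of the series, also of 3 libraries each, were control cells and CCNE1 cells with hairpin 1. Constructs were delivered by lentivirus under puromycin selection. No group is labelled as carrying a control hairpin, so less TMLHE and the presence of any hairpin cannot be told apart. Nothing in the labels states that the replicates came from separate cultures. The p-values therefore reflect only how far these libraries spread, and that spread may be technical.

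TMLHE encodes the mitochondrial dioxygenase that opens carnitine synthesis: it hydroxylates trimethyllysine with alpha-ketoglutarate, iron and oxygen. Carnitine carries long-chain fatty acids into mitochondria for beta-oxidation and takes up acetyl groups as acetylcarnitine. Besides TMLHE, the genes that mark the comparison are MT1E, a metallothionein that binds zinc and copper, HMGCS1, an early enzyme of cholesterol synthesis, and HMGA2, a chromatin protein of embryonic and tumour cells.

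Totals were 15814583 to 21457503 counts in the CCNE1 libraries and 14558444 to 19945180 in the shTMLHE 2 libraries. The libraries differed in make-up as well as in single genes. Genes with at least 1 count numbered 18411 to 18698 in the CCNE1 libraries and 22256 to 23463 with shTMLHE 2, and 18055 to 18399 against 22017 to 22478 expected when each library is thinned to the smallest total of the series. The GC content of the counted genes, weighted by their counts, was 52.95 to 53.04% against 50.03 to 50.14%. Levels are given as CPM, counts scaled to a common library size, with edgeR's TMM factors. In bulk RNA of this kind, fewer cells that express a gene and less RNA per cell cannot be told apart.

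Because the fold changes followed GC content, 2 fits of edgeR's quasi-likelihood test were set side by side. The count fit used the counts as deposited. The trend-removed fit took out of each library the smooth part of its log2 CPM that followed exon GC content and exon length. Fold changes are given in this order, with the standard error (SE), and p-values were adjusted over all tested genes. A gene is said to have risen or fallen where its adjusted p was under 0.05 in both fits and the direction was the same.

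The GC dependence was large and graded. When the tested genes were split into 10 equal bins by exon GC content, the median log2 fold change of shTMLHE 2 over CCNE1 fell in steps from 1.31 in the lowest bin, at a median GC of 37.6%, to -1.28 in the highest, at 63.8%. It crossed 0 between the bins at 47.5 and 50.3% GC. Each library took part: in the lowest bin the median deviation from the mean of the 6 libraries was 0.57 to 0.60 in the shTMLHE 2 libraries and -0.58 to -0.56 in the CCNE1 libraries. In the highest bin the order was reversed, at -0.59 to -0.54 against 0.58 to 0.61. The 3 replicates of a group did not overlap with those of the other at either end. Across genes, which are not independent replicates, Spearman's correlation of the log2 fold change was -0.65 with exon GC content (15373 genes), -0.62 with the GC content of the coding sequence and -0.63 with that of the 3′ untranslated region. It was -0.17 with the GC content of the 5′ untranslated region and -0.10 with that of the promoter. Exon length gave 0.31. Smooth functions of GC content and length accounted for 38.9% of the variance of the fold changes, and GC content alone for 37.4%. In the trend-removed fit the correlation was -0.05 with exon GC content and 0.04 with exon length. Other trends remained in that fit. The correlation with the mean log2 CPM of the 12 libraries was -0.24 in the count fit and -0.23 in the trend-removed fit. For coding length these were 0.25 and 0.21, and for GC content of the 3′ untranslated region -0.63 and -0.15.

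**Figure D1:**
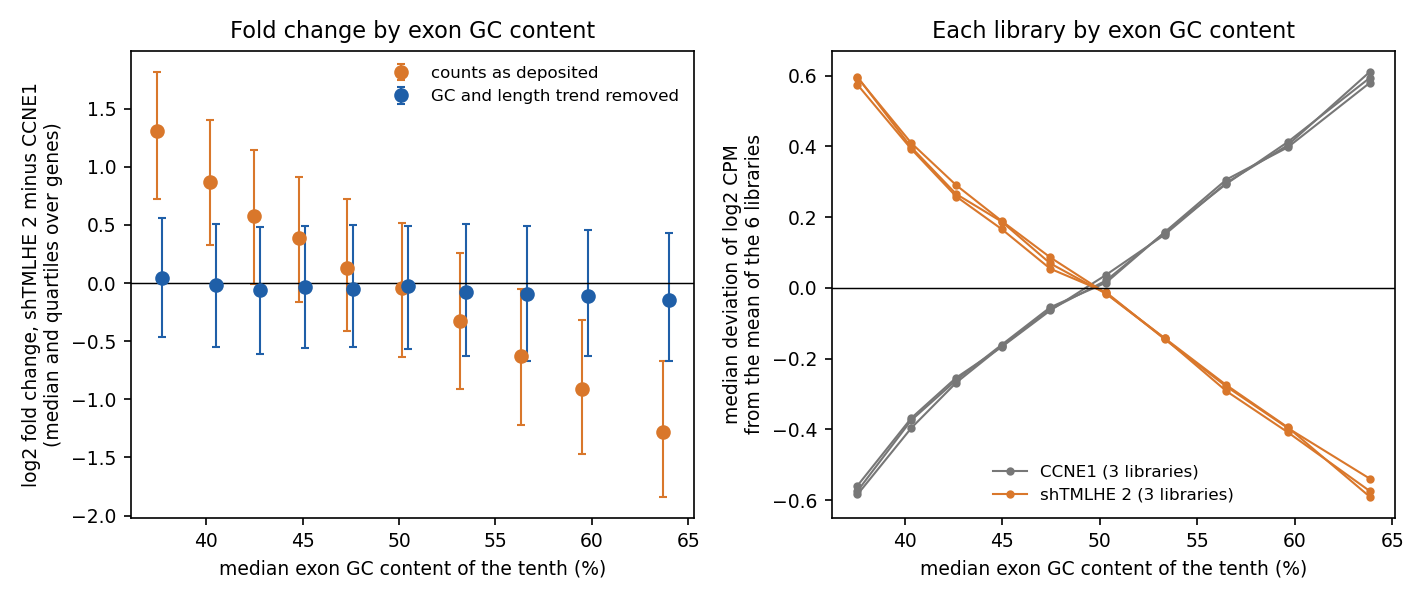
Left, log2 fold change of shTMLHE 2 over CCNE1 by 10 bins of exon GC content (%), with medians and quartiles over genes, for the count fit (orange) and the trend-removed fit (blue). Right, the median deviation of log2 CPM of each of the 6 libraries by the same bins; the replicates of a group lie together, and the medians run from 1.31 to -1.28 in the count fit.

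The ends of this scale can be seen in the genes of lowest and highest GC content among the 30 changes ranked below. TTC14, a tetratricopeptide-repeat protein, has exons of 35.85% GC, and HCFC1R1, a regulator of the host cell factor HCFC1, has exons of 64.55% GC. The start of the longest coding exon of each is shown with G and C in capitals, to show how far the base composition of such transcripts differs (GRCh38; GENCODE 29 transcripts; TTC14 exon 12 of 12, chr3:180609630-180609749, + strand; HCFC1R1 exon 4 of 4, chr16:3022879-3022998, - strand). G and C made up 36.7% of the first stretch and 67.5% of the second.
TTC14: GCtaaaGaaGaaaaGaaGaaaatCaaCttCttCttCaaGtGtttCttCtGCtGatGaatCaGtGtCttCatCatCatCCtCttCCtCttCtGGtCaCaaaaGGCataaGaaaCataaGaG
HCFC1R1: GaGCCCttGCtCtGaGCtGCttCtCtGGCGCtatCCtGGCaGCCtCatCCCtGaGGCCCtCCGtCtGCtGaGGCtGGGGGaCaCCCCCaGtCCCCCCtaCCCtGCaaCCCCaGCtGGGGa
TTC14 stood at 1.49, 0.550 and 0.951 CPM in the CCNE1 libraries and at 13.2, 13.6 and 13.5 CPM with shTMLHE 2. All libraries with the hairpin were higher, and its log2 fold change was 3.79 ± 0.28 (SE) in the count fit and 2.36 ± 0.28 in the trend-removed fit. HCFC1R1 stood at 364, 368 and 347 CPM against 19.1, 19.3 and 21.1 CPM, with log2 fold changes of -4.19 ± 0.05 and -2.87 ± 0.05. HCFC1R1 shares 18.1% of its exon bases with its neighbour THOC6, which fell too, and the strand setting of the counting is not given in the sources used here.

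In the count fit 11224 of the 15378 genes (73%) passed, 5653 of them higher (36.8%) and 5571 lower (36.2%) with shTMLHE 2. In the trend-removed fit 9747 passed (63.4%). Both fits called 7086 genes in the same direction (46.1%), of which 3199 rose (20.8%) and 3887 fell (25.3%). A change of at least 2-fold in both fits was reached by 1093 genes that rose (7.11%) and 1203 that fell (7.82%). A further 1163 genes (7.56%) passed in both fits with opposite signs, so that their direction rests on whether the trend is removed. Without overlap between the CPM of the 3 libraries of each group in either fit, and in the same direction, were 7584 genes (49.3%). The split depended on the scaling between libraries: with library sizes taken as total counts, 70.7% of the calls of the count fit were higher in place of 50.4%, and 58.8% of the calls of both fits in place of 45.1%. The median log2 fold change of all genes was 0.03 in the count fit and -0.06 in the trend-removed fit, and 0.56 in the count fit with total counts. Of all 40 gene lists tallied, 16 had a median in the count fit that changed sign under some scaling. Lists are therefore described by their genes called in both fits and read against the shares of all genes given here. With total counts that background differs: 4014 of the 15378 tested genes rose and 2813 fell in both fits. List counts given with total counts are to be read against it. Calls in both fits still followed GC content. In the lowest of the 10 GC bins 462 of 1538 genes rose and 43 fell, and in the highest 56 of 1538 rose and 644 fell. For lists of low or high GC content the shares of all genes are therefore not a matched background.

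TMLHE fell more than any other gene of the carnitine list. It stood at 13.2, 15.4 and 18.6 CPM in the CCNE1 libraries and at 0.247, 0.471 and 0.729 CPM with shTMLHE 2, from 177 to 293 counts down to 6 to 13. The groups were far apart, with log2 fold changes of -5.07 ± 0.26 (SE, edgeR adjusted p = 2.95e-20) and -5.58 ± 0.25. TMLHE lies on chromosome X (ENSG00000185973, 155490115 to 155669944, GRCh38). CCNE1 stood at 1027, 1015 and 963 CPM against 860, 823 and 858 CPM, and at 33.1 CPM in control cells, so its overexpression was present in all 6 libraries. Its log2 fold change was -0.24 ± 0.03 in the count fit and 0.13 ± 0.03 in the trend-removed fit, a change of sign.

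Of the 13 tested genes of carnitine synthesis, transport and acyl transfer, 6 fell and 1 rose, and with total counts 6 fell and 2 rose. The 6 include TMLHE, the target of the hairpin, whose fall was set by the design. SHMT2, the mitochondrial serine hydroxymethyltransferase, was measured most precisely: 808, 790 and 794 CPM without and 255, 266 and 261 CPM with the hairpin, a log2 fold change of -1.61 ± 0.03 and -1.11 ± 0.03. Its cytosolic counterpart SHMT1, an enzyme proposed for the second step of carnitine synthesis, fell from 153 ± 5.32 to 93.7 ± 0.761 CPM (SD, n = 3). ALDH9A1, the aldehyde dehydrogenase of the third step, rose from 88.5 ± 6.23 to 119 ± 0.786 CPM, with log2 fold changes of 0.43 ± 0.05 and 0.29 ± 0.05. CRAT, which moves acetyl groups between coenzyme A and carnitine, stood at 67.7, 81 and 87.1 CPM against 17.4, 16.9 and 14.9 CPM. Its groups were well separated, with log2 fold changes of -2.26 ± 0.08 and -1.40 ± 0.08. SLC22A5, the carnitine importer of the plasma membrane, fell at low levels, from 5.39 ± 1.97 to 1.66 ± 0.357 CPM. CPT1C, the brain-type carnitine palmitoyltransferase, fell from 12.7 ± 1.02 to 2.15 ± 0.424 CPM.

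The palmitoyltransferases of the mitochondrial shuttle did not pass in both fits. CPT1A, on the outer membrane, had log2 fold changes of 0.32 ± 0.23 and 0.30 ± 0.23, and CPT2, on the inner membrane, of -0.19 ± 0.18 and -0.88 ± 0.18. With 1 library left out at a time, CPT1A ran in the count fit from 0.16 without CCNE1 replicate 2 to 0.62 without CCNE1 replicate 1 (edgeR adjusted p = 0.0248), and it passed with total counts at 0.85. CPT2 ran from -0.38 without CCNE1 replicate 2 to -0.05 without CCNE1 replicate 3. The carnitine-acylcarnitine carrier SLC25A20 had -0.32 ± 0.18 and -0.09 ± 0.17. CROT, the peroxisomal octanoyltransferase, has exons of 36.7% GC; its log2 fold change of 1.14 ± 0.15 in the count fit became -0.08 ± 0.15 once the trend was removed. SLC22A4 had -0.03 ± 0.51 and 0.16 ± 0.51. SLC25A29, a mitochondrial carrier of basic amino acids with exons of 60.1% GC, had 0.03 ± 0.07 in the count fit and 0.72 ± 0.07 in the trend-removed fit (edgeR adjusted p = 2.44e-11), and 0.56 in the count fit with total counts.

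**Figure D2:**
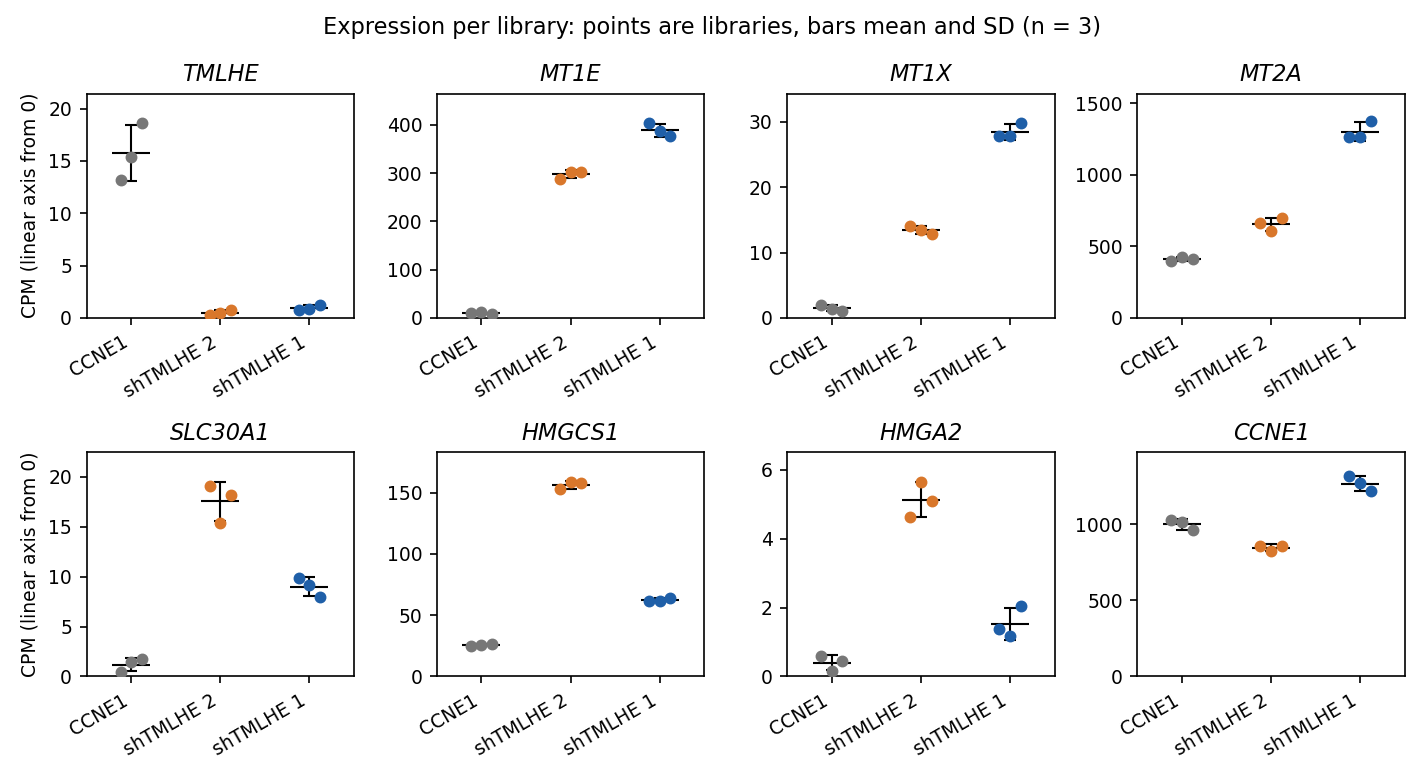
CPM (linear axes from 0) in each library (points), with the mean and SD (bars, n = 3), for TMLHE, metallothioneins, the zinc exporter SLC30A1, HMGCS1, HMGA2 and CCNE1 in the CCNE1, shTMLHE 2 and shTMLHE 1 groups. TMLHE is under 1.3 CPM in all 6 hairpin libraries, and MT1E rises from 7.35 to 11.4 CPM to at least 288 CPM.

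The metallothioneins MT1E and MT2A were higher with shTMLHE 2, as were the other 3 that were tested. Metallothioneins are small cysteine-rich proteins that buffer zinc and copper, and their genes, clustered on chromosome 16, are switched on by the zinc-sensing factor MTF1 through metal response elements. MT1E (ENSG00000169715, 56625475 to 56627112) stood at 11.1, 11.4 and 7.35 CPM in the CCNE1 libraries and at 288, 302 and 303 CPM with shTMLHE 2. Its log2 fold change was 4.90 ± 0.10 (SE, edgeR adjusted p = 4.34e-18) and 5.85 ± 0.11, the largest rise in both fits among the genes named here. MT1X stood at 1.94, 1.38 and 1.08 CPM against 14.1, 13.5 and 12.9 CPM, or 3.22 ± 0.20 and 3.73 ± 0.19. MT1M, which entered the test through the hairpin libraries, rose from 2 to 10 counts per library to 68 to 178, and MT1F from 12 to 20 counts to 48 to 50.

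MT2A was the metallothionein with the smallest rise in both fits, at 398, 424 and 415 CPM against 666, 607 and 696 CPM, a log2 fold change of 0.67 ± 0.04 and 1.63 ± 0.04. All libraries with the hairpin were above those without it. The rise of each of the 5 was larger with the trend removed, and their exons are of 54.0 to 62.2% GC. MT1X shares 18.1% of its exon bases with another gene. Another 7 metallothionein genes were not tested, 6 of which had no count in any of the 12 libraries and the last a single count in all. The transcribed pseudogene MT1L, named after its values were seen, had log2 fold changes of -0.49 ± 0.13 and 0.07 ± 0.12. Metallothionein genes are close copies of one another, and how the counting treated reads that fit several genes is not given in the sources used here.

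SLC30A1, the zinc exporter of the plasma membrane and another gene switched on by MTF1, stood at 0.448, 1.43 and 1.71 CPM against 19.1, 15.4 and 18.2 CPM. It rose by 3.82 ± 0.26 and 2.72 ± 0.26 on the log2 scale. Of the 27 tested genes of zinc transport and metal response 7 rose (25.9%) and 8 fell (29.6%). These shares were near the 20.8% and 25.3% of all tested genes, and the list medians were 0.36 and 0.03. TFRC, the transferrin receptor that imports iron, rose from 63.8 ± 0.497 to 215 ± 1.62 CPM. FTL, the light chain of the iron store ferritin, fell from 2111 to 562 CPM with log2 fold changes of -1.91 ± 0.03 and -1.15 ± 0.04, and SLC39A4, a zinc importer, fell by 1.98 ± 0.06 and 1.13 ± 0.06. MTF1 itself, named after its values were seen, rose by 1.33 and 0.95.

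The promoters of MT1X, MT2A and SLC30A1 in the RefSeq table (GRCh38.p14, 250 bases before to 50 after the start) are shown because these genes rose together. MT1X and MT2A were the 2 of the 5 tested metallothioneins in that table. Promoters of zinc transport and metal response genes that fell or did not pass are not shown. The counts of motifs below are therefore a description and no test of a link with the rises. Capitals mark the core of the metal response element, searched as TGCACNC and TGCGCNC on both strands, where capitals that run together can hold overlapping matches. MT1X (chr16:56682220-56682519, + strand) held 4 cores, MT2A (chr16:56608334-56608633, + strand) 8 and SLC30A1 (chr1:211579112-211579411, - strand) 2. Of the 35116 promoters of this length in the table, 29.6% held at least 1 core, 8.6% at least 2, 0.601% at least 4 and 0.0199% at least 8. A match is a match of letters and no measure of binding.
MT1X: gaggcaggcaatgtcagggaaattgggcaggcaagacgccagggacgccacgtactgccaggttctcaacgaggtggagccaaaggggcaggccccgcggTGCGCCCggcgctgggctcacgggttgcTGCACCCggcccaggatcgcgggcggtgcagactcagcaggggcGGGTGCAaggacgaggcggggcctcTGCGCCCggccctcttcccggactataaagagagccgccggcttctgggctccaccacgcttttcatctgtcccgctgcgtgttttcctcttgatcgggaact
MT2A: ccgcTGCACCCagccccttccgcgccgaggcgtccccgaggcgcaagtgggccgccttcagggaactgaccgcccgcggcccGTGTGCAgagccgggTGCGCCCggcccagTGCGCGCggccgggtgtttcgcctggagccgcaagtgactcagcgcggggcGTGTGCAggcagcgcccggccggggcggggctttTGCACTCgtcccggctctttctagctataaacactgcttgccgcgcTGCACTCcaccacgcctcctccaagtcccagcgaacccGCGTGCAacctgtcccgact
SLC30A1: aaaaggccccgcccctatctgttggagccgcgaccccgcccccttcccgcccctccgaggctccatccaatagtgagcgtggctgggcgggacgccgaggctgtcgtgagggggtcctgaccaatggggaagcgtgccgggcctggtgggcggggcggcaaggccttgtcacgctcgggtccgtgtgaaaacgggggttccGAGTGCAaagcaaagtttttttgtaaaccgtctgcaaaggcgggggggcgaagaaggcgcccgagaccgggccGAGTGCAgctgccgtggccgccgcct

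HMGCS1 and 11 further genes of cholesterol synthesis and uptake rose, 12 of the 24 tested, and 5 fell. The rises were mostly small, and 2 of the 24 rose at least 2-fold in both fits. The list medians were 0.21 and 0.23, against 0.03 and -0.06 over all tested genes. Sterol synthesis is controlled by SREBF2, which cells activate when sterols run low. HMGCS1 (ENSG00000112972, chromosome 5, 43289395 to 43313512) stood at 24.6, 25.6 and 26.3 CPM against 153, 159 and 158 CPM. The groups were about 6-fold apart in every library, with log2 fold changes of 2.62 ± 0.06 (SE, edgeR adjusted p = 2.53e-31) and 1.89 ± 0.06. IDI1, the isomerase of the isoprene units, stood at 69.2, 73.9 and 72.9 CPM against 291, 296 and 293 CPM, or 2.02 ± 0.05 and 1.53 ± 0.05. HMGCS1 shares 15% of its exon bases with another gene and IDI1 14.8%. The 5 that fell were PMVK, MVD, FDPS, EBP and FDFT1, named after their values were seen. The SREBF2 gene itself, named after its values were seen, was at -0.40 and -0.03. The sterol regulatory element, searched as TCACNCCAC on both strands, was found in 1 of the 17 promoters of this list in the table, against 1.13% of all promoters.

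Of 14 genes of fatty acid synthesis 6 fell and 3 rose (21.4%), and with total counts 4 fell and 4 rose. FASN, the fatty acid synthase, stood at 1654, 1602 and 1703 CPM against 440.5, 456 and 446.5 CPM. Its log2 fold change was -1.88 ± 0.03 and -0.94 ± 0.03, about a 2-fold difference between the fits for a transcript of 65.2% GC. SREBF1, the regulator of fatty acid synthesis, fell by 1.49 ± 0.05 and 0.72 ± 0.05.

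HMGA2 was barely counted in the CCNE1 libraries and rose in all 3 libraries with the hairpin. It stood at 0.598, 0.165 and 0.444 CPM, from 8, 3 and 7 counts, against 4.64, 5.65 and 5.10 CPM, from 113, 120 and 91 counts. The log2 fold change was 3.71 ± 0.40 (SE, edgeR adjusted p = 1.23e-10) and 2.57 ± 0.41. HMGA2 lies on chromosome 12 (ENSG00000149948, 65824131 to 65966295) and is a classic target of the let-7 microRNAs. Of the 12 tested genes of a list of HMGA and oncofetal let-7 targets, 7 rose and 2 fell. DICER1, which cuts microRNA precursors and is itself a let-7 target, rose from 10.3 ± 1.82 to 56.7 ± 2.82 CPM. HMGA1, the close relative of HMGA2, fell from 5577 to 1711 CPM with log2 fold changes of -1.70 ± 0.03 and -0.64 ± 0.02, and IGF2BP2, an oncofetal RNA-binding protein, fell by 1.53 and 1.74.

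The largest changes were ranked by the smaller of the 2 fits, 15 in each direction, among genes whose log2 CPM averaged at least 2, no overlap between the groups and at most 20% of exon bases shared. TMLHE and MT1M, with larger changes than most of these, were below that level. PHLPP2, a phosphatase that acts on AKT, stood at 4.93, 6.38 and 6.02 CPM against 67.4, 65.3 and 70.6 CPM, a log2 fold change of 3.54 ± 0.11 and 2.88 ± 0.11. PTX3, a secreted pattern-recognition protein, and LIF, a cytokine of the interleukin 6 family, rose by 2.72 and 2.54 in the count fit and by 2.73 and 3.14 in the trend-removed fit. CLK1, a kinase of splicing factors, rose from 2.44 ± 0.862 to 26.3 ± 1.54 CPM. YOD1, a deubiquitinase, and TVP23B, a Golgi protein, rose as well, but TVP23B shares 46.3% of its transcript at 98.9% identity with TVP23C, so its counts are uncertain. The others of the 15 rises were RSRP1, ZNF354A, ENTPD7, MIR22HG and ADAM19, with log2 fold changes of 2.29 to 2.61 in the count fit.

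Among the 15 falls within these limits, the first was that of FGFBP1, a secreted carrier of fibroblast growth factors: 13.5, 14.8 and 11.2 CPM against 0.329, 0.895 and 1.12 CPM, or -4.12 ± 0.25 and -4.01 ± 0.25. IMPA2, an inositol monophosphatase, fell from 76.6 ± 2.30 to 4.62 ± 1.47 CPM, with log2 fold changes of -4.02 ± 0.10 and -3.51 ± 0.10. IL1B, the cytokine interleukin 1 beta, stood at 15.5, 13.3 and 16.0 CPM against 2.63, 2.07 and 2.08 CPM, with no overlap. MAPK13, a p38 kinase, HPCAL1, a calcium sensor, and FAM83A, a signalling scaffold, fell by 3.11, 3.09 and 2.91 in the count fit. BTBD2, THOC6, TRAPPC9, TMEM8B, CRYL1, HDAC4 and TMEM107 made up the falls together with HCFC1R1 and U2AF1L5. U2AF1L5 matches U2AF1 over 98.7% of its transcript at 100% identity; its CCNE1 libraries ranged from 8.05 to 48.2 CPM and its SE was the widest of the 30, at -2.45 ± 0.59 and -3.21 ± 0.60, and it did not pass with limma-voom (adjusted p = 0.0519).

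**Figure D3:**
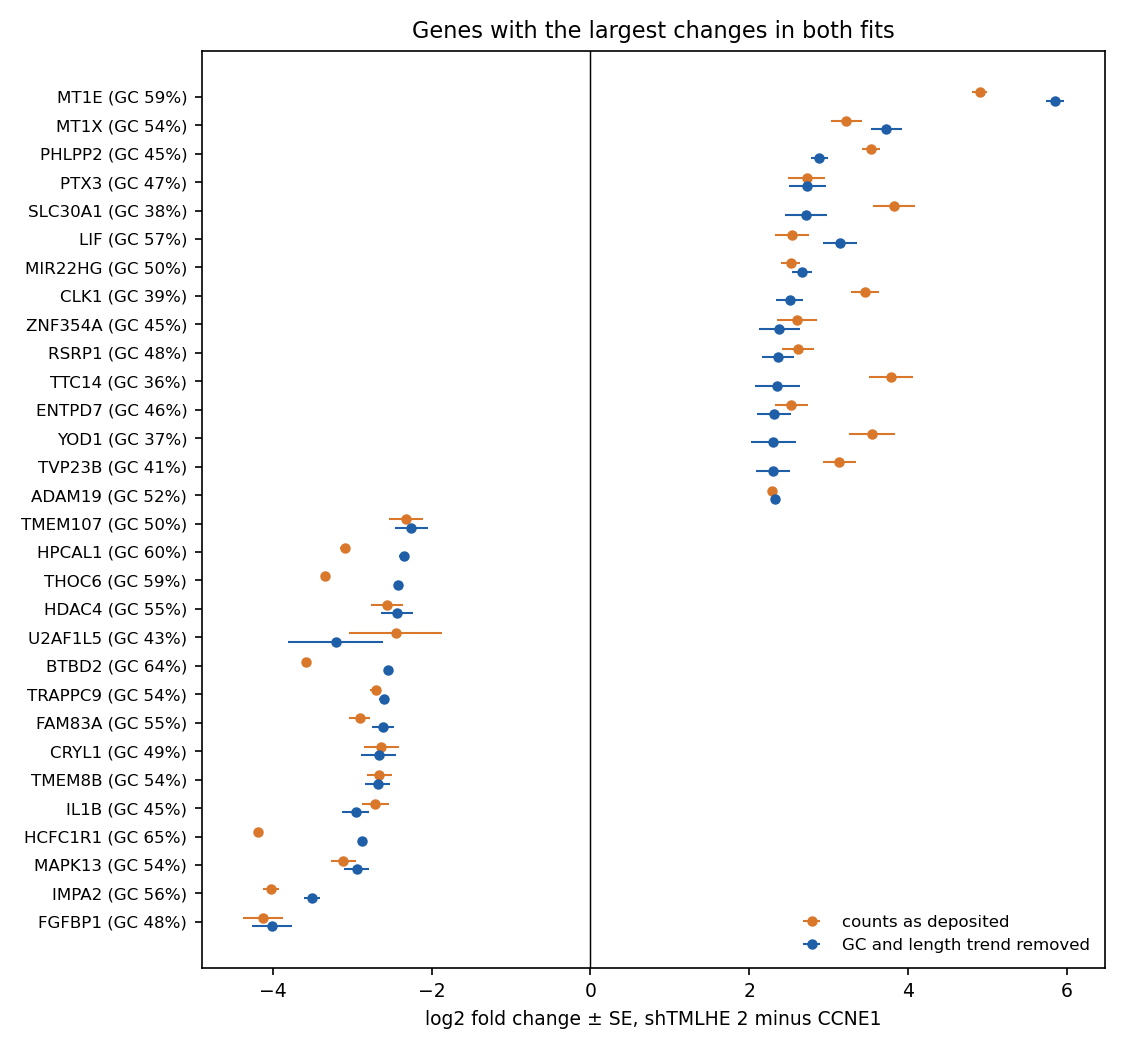
Log2 fold changes with their SE for the 15 largest rises and the 15 largest falls of shTMLHE 2 over CCNE1 among genes whose log2 CPM averaged at least 2 and no overlap between the groups, in the count fit (orange) and the trend-removed fit (blue), with the exon GC content of each gene. The fits lie far apart for genes at the ends of the GC scale, such as TTC14 (3.79 and 2.36) and HCFC1R1 (-4.19 and -2.87).

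Ribosomal proteins made up the list with the largest share of falls. Of 79 tested cytosolic ribosomal protein genes 72 fell and 3 rose, with median log2 fold changes of -1.34 and -1.08, and with total counts 63 fell and 3 rose. They took 16.3 to 16.7% of the counts of the CCNE1 libraries and 8.82 to 8.94% with shTMLHE 2. RPLP0, of the ribosomal stalk, stood at 11650, 11690 and 11860 CPM against 3738, 3782 and 3775 CPM, a log2 fold change of -1.64 ± 0.02 in either fit. The 3 that rose were RPS24, RPS10 and RPL36A, named after their values were seen. Many ribosomal protein genes have near-identical processed pseudogenes, such as RPLP0P6 for RPLP0 (34.7% of the transcript at 98.8% identity), and reads may have been split between them.

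Genes of the mitochondrial energy supply fell as well. Of the 55 tested nuclear-encoded subunits of the respiratory chain 44 fell and 2 rose, with medians of -1.05 and -0.99, and with total counts 38 fell and 3 rose. UQCRC1, of complex III, stood at 1315, 1304 and 1269 CPM against 376, 386 and 387 CPM, by -1.76 ± 0.03 and -0.99 ± 0.03. CYC1, of the same complex, and NDUFS8, of complex I, fell by 2.06 and 2.12 in the count fit. In the trend-removed fit NDUFS8 fell by 1.36. Of the 77 mitochondrial ribosomal proteins 50 fell and 2 rose, with medians of -0.76 and -0.59. Of the 13 mRNAs encoded in the mitochondrion itself 8 fell and 2 rose, and with total counts 4 and 2: MT-CO2 fell from 7421 to 2548 CPM, while MT-ND5 rose from 819 ± 10.2 to 1497 CPM.

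The tricarboxylic acid cycle and beta-oxidation, to which carnitine delivers its fuel, showed falls of the same kind. Of 30 genes of the cycle and of alpha-ketoglutarate metabolism 16 fell and 1 rose, and with total counts 11 fell and 1 rose, while the list median changed sign from -0.50 to 0.03. IDH2, the mitochondrial isocitrate dehydrogenase, which makes alpha-ketoglutarate, stood at 259, 246 and 246 CPM against 52.1, 50.5 and 51.4 CPM, or -2.29 ± 0.04 and -1.73 ± 0.04. Of 25 genes of beta-oxidation 13 fell and 1 rose, and with total counts 8 fell and 1 rose, with the list median at 0.19 in place of -0.34. ACADS, the short-chain acyl-CoA dehydrogenase, fell from 44.7 ± 2.45 to 6.96 ± 1.15 CPM, by 2.67 and 1.42. Of 18 genes of acetyl-CoA supply 5 fell (27.8%), a share near the 25.3% of all tested genes, and 2 rose (11.1%). With total counts 4 fell and 3 rose. SLC25A1, the citrate carrier, fell by 2.27 in the count fit and 0.78 in the trend-removed fit. Of 30 genes of glycolysis and hypoxia 13 fell and 8 rose, a balance that turned with total counts to 9 and 11. GAPDH stood at 13220, 13450 and 13470 CPM against 4577, 4539 and 4593 CPM, and its log2 fold change of -1.55 ± 0.02 became -0.58 ± 0.03 once the trend was removed.

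**Figure D4:**
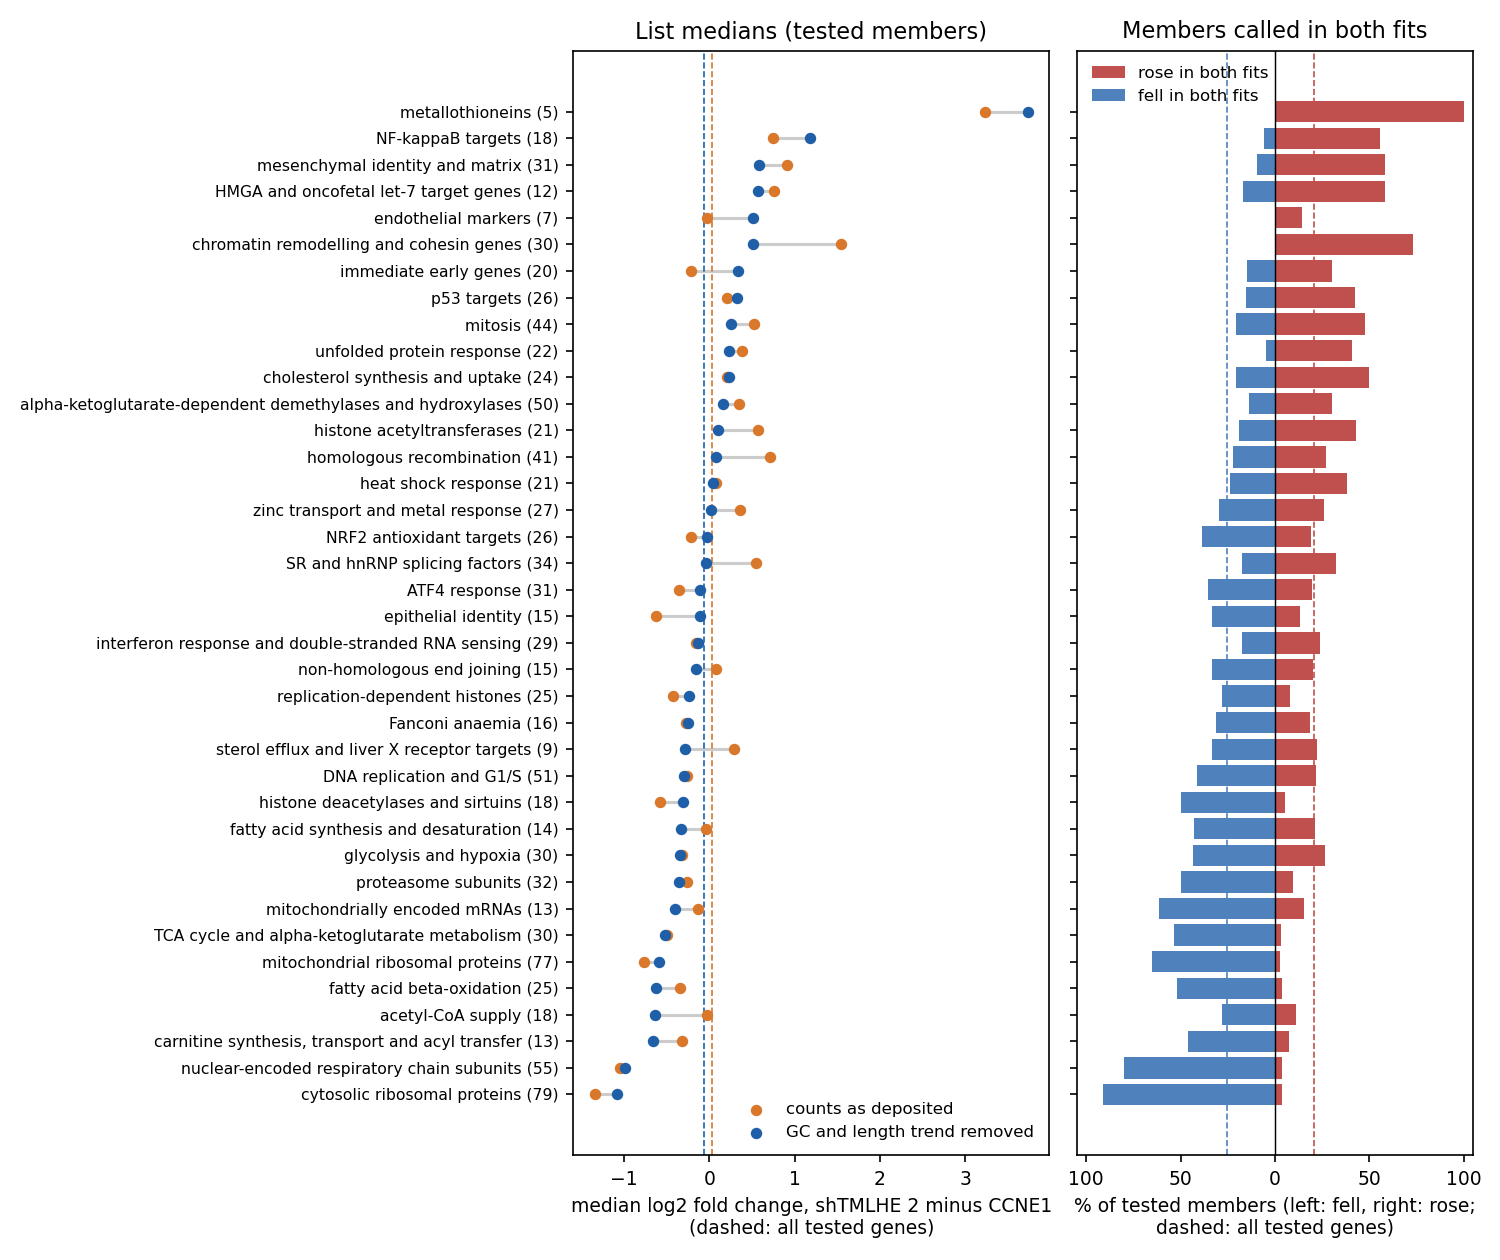
Left, the median log2 fold change of shTMLHE 2 over CCNE1 over the tested members (number in brackets) of each list in the count fit (orange) and with the trend removed (blue); dashed lines are the medians of all tested genes. Right, the percentage of members that rose (red) or fell (blue) in both fits, beside the shares of all tested genes (dashed, 20.8 and 25.3%).

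The series concerns histone acetylation and homologous recombination, and lists for both were tallied. Of 18 histone deacetylases and sirtuins 9 fell (50%) and 1 rose (5.56%), and with total counts 5 fell and 1 rose. Their median exon GC content was 55.2%, where falls were more frequent than over all genes. In the GC bin at 53.3% 546 of 1537 genes fell and 301 rose in both fits. In the bin at 56.5% 609 of 1537 fell and 176 rose. HDAC5 fell from 232 ± 15.1 to 50.5 ± 3.42 CPM, by 2.20 ± 0.05 and 1.47 ± 0.05, SIRT2 by 1.60 and 0.92, and HDAC4 by 2.56 and 2.43. Of 21 histone acetyltransferases and their partners 9 rose and 4 fell. NCOA3, a nuclear receptor coactivator, rose from 30.7 ± 2.88 to 90.8 ± 1.47 CPM. TADA3, an adaptor of acetyltransferase complexes, and KAT8, the acetyltransferase of histone H4, fell by 1.36 and 1.32 in the count fit. In the trend-removed fit KAT8 fell by 0.88. Of 50 demethylases and hydroxylases that use alpha-ketoglutarate, as TMLHE does, 15 rose and 7 fell. ASPH rose by 1.57 and 0.15. ALKBH7 fell by 1.81 and 0.61, and PLOD1 by 0.76 and 0.23.

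Of 41 genes of homologous recombination 11 rose (26.8%) and 9 fell (22%), and with total counts 11 rose and 4 fell. The shares were near the 20.8% and 25.3% of all tested genes, and the median exon GC content of the list was 41.3%. The median log2 fold change was 0.71 in the count fit but 0.08 in the trend-removed fit, against 0.03 and -0.06 over all tested genes. BRCA1 stood at 38.1, 35.2 and 38.5 CPM against 87.1, 83.4 and 89.6 CPM, or 1.22 ± 0.07 and 0.54 ± 0.06. NBN, of the complex that senses double-strand breaks, rose by 1.91 and 0.71, and XRCC3, which acts in strand exchange, fell by 1.69 and 0.93. XRCC3 shares 76.7% of its exon bases with other genes, and its counts are uncertain. Of 16 Fanconi anaemia genes 3 rose and 5 fell, and of 15 genes of end joining 3 rose and 5 fell. With total counts these were 3 and 3, and 4 and 4. MAD2L2, a subunit of shieldin and of polymerase zeta, fell from 162 ± 6.96 to 29.9 ± 0.830 CPM, by 2.43 and 1.29.

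Of 30 chromatin remodelling and cohesin genes 22 rose and none fell in both fits, with medians of 1.54 and 0.51, and the counts were the same with total counts. These 30 genes had a median exon GC content of 39.7%. In the count fit 29 of the 30 passed higher and none lower, so none could fall in both fits. In the GC bin at a median of 40.3%, 429 of 1537 genes rose and 99 fell in both fits. KMT2C, a histone H3 methyltransferase, stood at 23.3, 27.6 and 26.7 CPM against 95.6, 87.8 and 95.4 CPM, or 1.84 ± 0.07 and 1.11 ± 0.07. STAG2, of cohesin, rose from 17.9 ± 2.49 to 77.3 ± 1.21 CPM, by 2.11 ± 0.08 and 1.06 ± 0.08.

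Of 51 genes of DNA replication and G1/S 21 fell and 11 rose, and with total counts 14 fell and 13 rose. CDT1, which loads the replicative helicase, stood at 537, 528 and 540 CPM against 96.8, 98.9 and 88.5 CPM, by -2.50 ± 0.04 and -1.29 ± 0.04. MCM5, of that helicase, and CDK4, the kinase of the cyclins D, fell by 2.08 and 2.03 in the count fit and by 1.78 and 1.72 in the trend-removed fit, but CDK4 shares 43.2% of its exon bases with other genes. CDK6, the partner of CDK4, named after its values were seen, rose from 11.6 ± 2.13 to 94.0 ± 5.07 CPM. Of 44 mitosis genes 21 rose and 9 fell. CDC20 and UBE2C, which act in the destruction of cyclin B, fell by 1.44 and 1.08 in the count fit. In the trend-removed fit CDC20 fell by 0.65. SMC4, of condensin, rose by 1.92 and 0.79 but shares 25.6% of its exon bases with other genes such as TRIM59.

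Among signalling and stress lists, NF-kappaB targets rose most often, 10 of 18 with 1 fall. BIRC2, an inhibitor of apoptosis, stood at 10.7, 9.74 and 10.3 CPM against 45.0, 44.4 and 46.0 CPM, and NFKB1, a subunit of NF-kappaB, rose by 0.86 and 0.64. The 1 fall was IL1B, given above. Of 26 p53 targets 11 rose and 4 fell: TNFRSF10B, a death receptor, rose by 1.28 and 1.36, while FDXR and BAX fell by 2.44 and 1.61 in the count fit. In the trend-removed fit FDXR fell by 1.54. Of 22 genes of the unfolded protein response 9 rose and 1 fell, and of 21 of the heat shock response 8 rose and 5 fell. With total counts these were 14 and 0, and 8 and 2. Of 31 genes of the ATF4 response 6 rose and 11 fell, and with total counts 8 rose and 7 fell. PHGDH, the first enzyme of serine synthesis, fell from 1482 to 428 CPM, by 1.79 and 1.84. Interferon response genes rose in 7 and fell in 5 of 29, and with total counts in 8 and 3.

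Of 34 genes of the SR and hnRNP families and their partners 11 rose (32.4%) and 6 fell (17.6%), and with total counts 11 rose and 2 fell. The medians were 0.54 in the count fit and -0.04 in the trend-removed fit. HNRNPM, an hnRNP that promotes exon skipping, stood at 272, 270 and 255 CPM against 55.3, 55.5 and 52.6 CPM, or -2.29 ± 0.05 and -2.11 ± 0.05. HNRNPC, which binds uridine tracts, fell by 0.90 ± 0.03 in the count fit and by 2.03 ± 0.04 in the trend-removed fit. LUC7L3, of the U1 particle, rose by 2.6 ± 0.09 and 1.40 ± 0.09.

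The labelled identity of the cells was checked against markers. Of 24 epithelial and Müllerian markers 15 were tested, of which 5 fell and 2 rose, a balance that turned with total counts to 3 and 4. MUC16, GRHL2, OVOL1 and MECOM were at 0 counts in all 3 libraries of each group. PAX8, the lineage factor of serous ovarian cancer, named after its values were seen, was present at 108 ± 2.40 and 69.9 ± 1.39 CPM. KRT18 fell by 1.57 and 0.91 and KRT8 by 0.73 and 0.36, while TJP1, a protein of tight junctions, rose by 0.95 and 0.15. Of 31 tested mesenchymal and matrix genes 18 rose and 3 fell. COL4A1, a basement membrane collagen, stood at 116, 119 and 126 CPM against 425, 426 and 436 CPM, and THBS1, a matrix glycoprotein, rose by 1.61 and 1.12. Markers of other cells were sparse: of 14 leukocyte markers 2 were tested, with a summed level of 2.75 to 3.61 CPM against 1.88 to 3.37 CPM. In all 3 CCNE1 libraries 8 of the 14 were at 0, PTPRC, CD3D and LYZ among them. With shTMLHE 2 this held for 4, CD3D among them, while PTPRC and LYZ had counts. The 10 endothelial markers summed to 27.5 to 29 CPM against 27.4 to 28.8 CPM, with CDH5 at 0 in the CCNE1 libraries but counted with shTMLHE 2. The 9 fibroblast markers summed to 612 to 641 CPM against 1260 to 1300 CPM, nearly all of it COL1A1, with DCN and POSTN at 0 in both groups.

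Hairpin 2 was compared directly with hairpin 1 to find where their effects differed. In this test 5412 genes passed in both fits in the same direction (35.2%), 2496 higher (16.2%) and 2916 lower (19%) with shTMLHE 2. Genes were named here only where shTMLHE 2 also differed from CCNE1, and the values of each hairpin over CCNE1 share the CCNE1 libraries. TMLHE itself was lower with hairpin 2, at 0.482 ± 0.241 against 0.956 ± 0.286 CPM, by 1.03 ± 0.37 (SE, edgeR adjusted p = 0.0154) in the count fit. HMGCS1 was higher, at 156 ± 3.32 against 62.5 ± 1.60 CPM, a log2 difference of 1.32 ± 0.05, and so was HMGA2, by 1.75 ± 0.32. MT1X, MT1F and MT2A were lower with hairpin 2 in both fits, by 1.07, 1.19 and 0.99, whereas MT1E, MT1M and SLC30A1 did not pass in both.

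The largest differences went both ways. ULBP2, a stress ligand of the receptor NKG2D, stood at 16.6, 18.5 and 18.3 CPM with hairpin 2, at 2.03, 2.38 and 1.57 CPM with hairpin 1 and at 5.60, 6.27 and 6.21 CPM without a hairpin. The CCNE1 libraries thus lay between the hairpin groups, with log2 fold changes over CCNE1 of 1.56 with hairpin 2 and -1.59 with hairpin 1. RASSF3, SNHG4, HOXC8 and NEK3 were also above the CCNE1 level with hairpin 2 and below it with hairpin 1 in the mean CPM. ULBP2 matches RAET1L over 92.6% of its transcript at 95.9% identity. TXNIP, an inhibitor of thioredoxin and glucose uptake, went the opposite way, at 6.62, 6.17 and 7.46 CPM with hairpin 2, 47.1, 44.4 and 41.4 CPM with hairpin 1 and 17.2, 17.7 and 18.4 CPM without. FAM83A was low with hairpin 2, at 2.07 to 3.41 CPM against 26.0 to 27.0 CPM with hairpin 1 and 19.2 to 23.8 CPM in CCNE1 cells. HPCAL1, IMPA2 and MAPK13 were lower with hairpin 2 than with hairpin 1 by 2.78, 2.52 and 2.49, and their hairpin 1 means were below those of CCNE1.

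**Figure D5:**
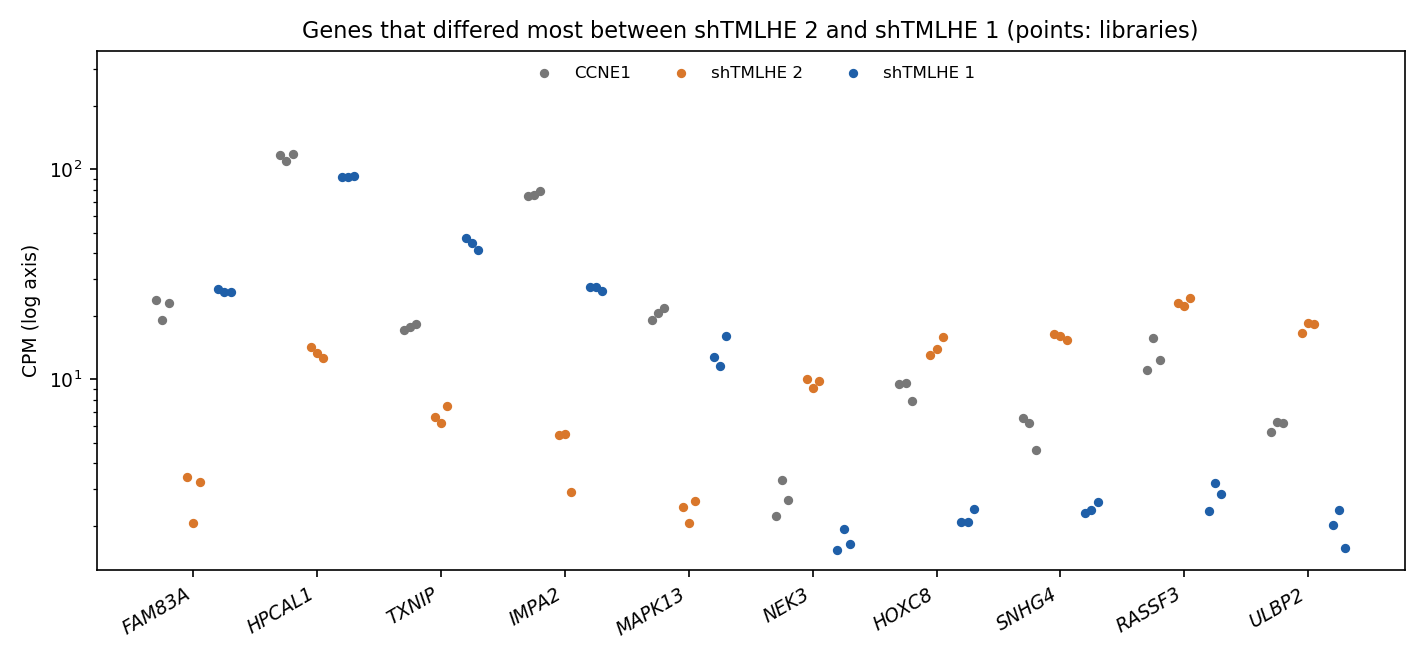
CPM (log axis) in each library (points) of the CCNE1, shTMLHE 2 and shTMLHE 1 groups for 10 of the genes that differed most between the hairpins. For the 5 on the right the hairpin 2 libraries lie above and the hairpin 1 libraries below the CCNE1 libraries; for TXNIP and FAM83A the order is the opposite.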

How the data were processed

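The authors deposited whole-number counts per gene and FPKM values for 12 RNA-seq libraries. Per the submitters' processing notes the tools included STAR 2.6.1 and DESeq2 and the build was GRCh38; for the counter, the use of strand and the handling of ambiguous reads, nothing is given in the sources used here. Per the file headers, gene length stands beside the FPKM values, which the authors scaled by length and depth; FPKM entered only an alternative, on log2(FPKM + 0.1) and log2(FPKM + 1).

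Counts were fitted over all 12 libraries with edgeR 4.0.16 in R 4.3.3 (TMM, filterByExpr by group, robust quasi-likelihood test, 8 residual degrees of freedom, Benjamini-Hochberg adjustment). The filter left out 43357 genes. The trend-removed fit added offsets per gene and library from natural splines (5 degrees of freedom each) of exon GC content and log2 exon length over GENCODE 29 genes; 5 tested genes without GC content took the median. DESeq2 1.42.0 and limma 3.58.1 were alternatives. Totals of 14054101 to 21457503 counts set the precision. The scripts were tested on simulated data.

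Named were TMLHE, CCNE1, MT1E, HMGCS1, HMGA2, tested carnitine and metallothionein genes, the 15 largest rises and falls (smaller of both fits, mean log2 CPM of at least 2, no overlap between groups, protein-coding or long non-coding, at most 20% of exon bases shared), up to 3 members a list by smallest p, the 6 largest differences each way between hairpins under the same filters, and the ends of the GC scale. Members and lists were chosen with earlier results of these data known. Same-numbered libraries did not deviate together (r of -0.074 to 0.068 over 18 pairs), so replicates were not paired. Some genes that the rule names are not reported here.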

Additional observations from a re-analysis of the deposited data

Results flagged for a closer look

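The following 10 genes were picked out because edgeR's test of the difference between the hairpins passed in both fits; they are among the largest such differences each way by the rule for named genes, and the CCNE1 libraries are shared by the fold changes of both hairpins. Differences are log2 fold changes of shTMLHE 2 over shTMLHE 1 in the count fit. Lower with hairpin 2 were FAM83A at -3.17, HPCAL1 at -2.78, TXNIP at -2.72, IMPA2 at -2.52 and MAPK13 at -2.49. Higher with hairpin 2 were NEK3 at 2.5, HOXC8 at 2.69, SNHG4 at 2.72, RASSF3 at 3.05 and ULBP2 at 3.15. With 3 libraries a group, no test for single outlying libraries was made.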

How the results depend on the processing

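With total counts as library sizes the count fit called 3443 genes lower. With nearly no filter (at least 1 count in 1 library) 3505 genes reached 2-fold in both fits, 1938 of them lower, and with the length trend alone removed 4543 did, 2155 higher and 2388 lower. Leaving out 1 replicate at a time gave 10661 to 11057 calls in the count fit, 9011 to 9560 in the trend-removed fit, 6619 to 7035 in both, 2258 to 2488 of at least 2-fold in both, and 4809 to 5053 between the hairpins. The replicate numbers share only a number; with them as a block the count fit called 11123 genes, the trend-removed fit 9632, both 7006, 2276 at least 2-fold and 5318 between the hairpins. These log2 fold changes changed sign. With total counts CPT2 was at 0.343, SLC25A20 at 0.209, CCNE1 at 0.288 and SLC22A4 at 0.489. Under the trend-removed fit, and then with GC alone as the trend, CCNE1 was at 0.133 and 0.017, SLC22A4 at 0.164 and 0.058, and CROT at -0.084 and -0.139. SLC22A4, with under 1.3 CPM in every one of the 6 libraries, was also at 0.076 with upper quartile scaling, 0.046 with limma-voom, 0.014 on log2(FPKM + 0.1), 0.686 without CCNE1 replicate 2 and 0.234 without shTMLHE 2 replicate 3, in a range of -0.403 to 0.686 with 1 replicate left out; SLC25A29 was at -0.008 without CCNE1 replicate 2, in a range of -0.008 to 0.077. List medians relative to all tested genes that changed sign, in the same pair of settings, were those of sterol efflux (-0.224 and -0.018, and -0.226 without CCNE1 replicate 2, in a range of -0.226 to 0.276), end joining (-0.094 and -0.294), immediate early genes (0.387 and 0.324) and endothelial markers (0.566 and 0.465); NRF2 targets were at 0.029 with both trends removed and splicing factors at -0.02 with GC alone as the trend. The cause was not tested.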

Other observations

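Some classes of genes stood apart from the shares of all tested genes, of which 20.8% rose and 25.3% fell. These shares are not matched for GC content. Of 485 tested genes with symbols that begin with ZNF, most of them zinc-finger proteins, 192 rose and 42 fell, with median log2 fold changes of 0.93 in the count fit and 0.47 in the trend-removed fit; this class was chosen after its values were seen. Of 63 sense intronic transcripts 20 rose and 2 fell, with medians of 1.15 and 0.65. The median exon GC content was 44.1% for the ZNF genes and 43.4% for the sense intronic transcripts. In the GC bins at 42.6 and 45.0%, 437 of 1537 genes rose in each, and 202 and 277 fell. Of 214 transcribed unprocessed pseudogenes 73 rose and 19 fell. Processed pseudogenes went the other way, with 38 of 375 risen and 106 fallen and medians of -0.50 and -0.32. Antisense transcripts rose in 86 and fell in 80 of 590, and long intergenic noncoding RNAs in 60 and 84 of 512.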
